A study of Homo sapiens with 12 samples.

Results

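The genes described here carry out fatty acid oxidation and ketone body metabolism or belong to the PPAR system that regulates them. The genes were chosen by symbol, as a list by function, and they are 38 of the 26475 genes in the deposited counts. The choice was made with earlier results of these data known, so that shares set beside those of all genes describe this list only. All 38 were among the 15461 genes with enough counts to be tested. They were sorted by role into 5 genes of fatty acid uptake and activation, 5 of the carnitine shuttle, 8 acyl-CoA dehydrogenases and electron transfer proteins, 8 further mitochondrial enzymes, 4 peroxisomal enzymes, 4 ketone body enzymes, and 4 genes that are PPAR regulators or their target.

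The cells were SUM159PT (SUM159), a human breast cancer line, injected into female NOD scid gamma mice aged 8 weeks, a strain that lacks T, B and NK cells and keeps myeloid cells. All 12 libraries were made from tumours of this single line in this single host strain. Tumour cells were stained for human CD24 and CD44 and sorted into CD44-positive cells with low CD24 (LO) and CD44-positive cells with high CD24 (HI), a sort meant to part cancer stem cells from differentiated ones. Mice on the fasting-mimicking diet (FMD) had cycles of 4 days each week, how many is not given in the sources used here, and control mice (CTR) ate a standard diet. The groups, each of 3 libraries, were FMD_LO, CTR_LO, FMD_HI and CTR_HI, and the labels name no genetic change or drug in any of them. The question is how far the diet moves this pathway in each sorted population.

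Fatty acids enter a cell through transport proteins, are activated to acyl-CoA by long-chain synthetases, and cross into mitochondria as acylcarnitines through the carnitine shuttle. Inside, dehydrogenases of different chain-length preference pass electrons to the electron transfer flavoprotein, and further enzymes hydrate, oxidise and cleave the chain to acetyl-CoA, while peroxisomes shorten very long chains. In fasting, tissues such as liver and muscle raise many of these genes through the fatty acid receptors PPARα and PPARδ, and the liver makes ketone bodies that other tissues burn.

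Upstream sequence is shown for 4 genes on which the diet results turn: ANGPTL4, SLC25A20 and ACADVL, which were higher under FMD, and HADH, which was lower. Each is the 250 bases before a RefSeq start entry on GRCh38.p14, read 5′ to 3′ on the strand of the gene, and capitals mark the GC box (GGGCGG, or CCGCCC for the other strand), a short motif common in promoters of widely expressed genes. ANGPTL4 lies on the plus strand at chr19:8363905-8364154, SLC25A20 on the minus strand at chr3:48898883-48899132, ACADVL on the plus strand at chr17:7219688-7219937 and HADH on the plus strand at chr4:107989639-107989888. ACADVL and HADH have 2 RefSeq entries each, and the entry nearer to the start of the principal GENCODE transcript was used. The other 3 windows adjoin the start of the gene span given below, while that of ACADVL lies inside the span, which begins farther upstream.
ANGPTL4: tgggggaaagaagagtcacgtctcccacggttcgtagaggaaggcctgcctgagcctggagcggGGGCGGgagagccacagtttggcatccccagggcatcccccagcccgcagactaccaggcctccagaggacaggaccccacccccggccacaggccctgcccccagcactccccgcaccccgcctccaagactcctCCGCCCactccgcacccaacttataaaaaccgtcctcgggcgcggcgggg
SLC25A20: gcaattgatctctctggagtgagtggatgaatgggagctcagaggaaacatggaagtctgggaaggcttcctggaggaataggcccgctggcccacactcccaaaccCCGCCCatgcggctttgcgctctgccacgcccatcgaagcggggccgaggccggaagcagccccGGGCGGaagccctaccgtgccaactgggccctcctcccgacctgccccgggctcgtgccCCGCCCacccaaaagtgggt
ACADVL: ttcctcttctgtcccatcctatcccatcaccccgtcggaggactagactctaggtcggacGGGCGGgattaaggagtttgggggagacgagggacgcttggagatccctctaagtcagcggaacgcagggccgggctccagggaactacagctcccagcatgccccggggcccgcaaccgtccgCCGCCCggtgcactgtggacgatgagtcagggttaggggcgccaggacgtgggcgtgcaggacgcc
HADH: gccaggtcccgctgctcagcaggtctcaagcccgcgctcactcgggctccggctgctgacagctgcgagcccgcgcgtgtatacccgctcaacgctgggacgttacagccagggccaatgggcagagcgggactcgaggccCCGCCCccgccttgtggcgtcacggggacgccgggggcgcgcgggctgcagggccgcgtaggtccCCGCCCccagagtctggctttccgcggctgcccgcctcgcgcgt
These windows hold 2, 3, 2 and 2 GC boxes, in the order shown. RefSeq promoter entries matched 34 of the 38 genes, with 51 entries in all, and 35 of the 51 held a GC box on either strand, which was present in 42.6% of all 35116 promoters of this length. For 28 of the 34 an entry lay within 250 bases of the start of a principal GENCODE transcript. The nearest entry was farther for ECHS1, ACADM, CPT2, ACAA2, CPT1A (2361 bases) and PPARGC1A (8976 bases). The PPAR response element with 1 base between its AGGTCA repeats (AGGTCANAGGTCA, both strands) was in none of the 34 genes' windows and in 0.0171% of all promoters. A single copy of AGGTCA, on either strand, was found for 1 of the 34, ACSL5, and in 12.1% of all promoters. Only 6 of the 35116 promoters held the full element in these exact letters. Its absence from 51 entries therefore could not set these genes apart from others. The absence of exact letters from a 250-base window says nothing about binding to similar letters there, or about binding elsewhere. The element was not searched for in introns or further upstream.

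Counted reads ran from 17736610 to 18579816 in FMD_LO and from 29049144 to 47587142 in the other 9 libraries. Values below are CPM, counts relative to the TMM-scaled library total, given per library in the order of replicates 1 to 3 or as mean ± SD over 3 libraries. Differences are log2 fold changes ± an approximate standard error, FMD over CTR unless stated. A gene was called when its adjusted p from edgeR's quasi-likelihood test (Benjamini-Hochberg, over the 15461 genes) was under 0.05. The labels do not say whether the replicates of a group came from separate mice, so that p-values measure only the spread between these libraries. The line's markers VIM, CD44, KRT8 and KRT18 summed to between 6118 and 7986 CPM in every library, and ESR1 and PGR together stayed below 1 CPM, as is known of this hormone receptor-negative line. Single markers of the line differed between groups. In LO 3 of the 4 had a negative diet difference, with a median of -0.33, and KRT18, a keratin of simple epithelia, was called lower in FMD_LO (-0.42 ± 0.12, adjusted p = 0.0266).

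FMD_LO libraries stood apart in genes listed as markers of other cell types. Of 13 myeloid markers, 10 were tested and 6 were called higher in FMD_LO than in CTR_LO, and their summed level was 171 to 205 CPM in FMD_LO and 23.0 to 38.5 CPM in CTR_LO, against 40.7 to 61.8 in FMD_HI and 29.5 to 45.9 in CTR_HI. The myeloid adaptor gene TYROBP was at 0 in all FMD_LO libraries. Skeletal muscle markers summed to 68.1 to 105 CPM in FMD_LO and 5.29 to 14.2 CPM in CTR_LO, with ACTA1 at a mean of 73.9 CPM in FMD_LO against 2.45 CPM in CTR_LO, while MYH1, MYH2 and MYL1 averaged 0.02 CPM each in FMD_LO. TNNT3, a troponin of fast muscle fibres, ran the other way, at 3.17 ± 0.797 CPM in FMD_LO and 6.60 ± 1.94 CPM in CTR_LO (-1.06 ± 0.39, adjusted p = 0.0825), and it was called lower averaged over the populations (-0.96 ± 0.27, adjusted p = 0.0387). The 9 fibroblast markers, most of whose reads were collagen transcripts, summed to 44643 to 66509 CPM in FMD_LO and 18421 to 32399 CPM in CTR_LO, against 13313 to 16449 in FMD_HI and 15296 to 27924 in CTR_HI, with 5 of 9 called higher in FMD_LO than in CTR_LO. In every library this sum was above that of the line's markers (up to 7986 CPM), and which cells made these transcripts was not tested. Endothelial markers summed to 92.3 to 126 CPM in FMD_LO and 65.6 to 71.0 in CTR_LO, with 3 of 8 called higher. Adipocyte markers summed to 32.5 to 48.3 CPM in FMD_LO and 24.6 to 33.4 CPM in CTR_LO, with LEP at 0 in both groups, and LPL, a lipase that macrophages and muscle also make, at a mean of 16.2 CPM in FMD_LO and 1.44 CPM in CTR_LO. Of the 5 adipocyte markers tested 3 were negative in LO, and PLIN4, a lipid droplet protein, was called lower, at 12.8 ± 3.002 CPM in FMD_LO and 19.6 ± 3.47 CPM in CTR_LO (-0.62 ± 0.19, adjusted p = 0.0379). Removal of mouse reads before counting is not given in the sources used here, and the part of these markers in the FMD_LO results was not tested. In bulk samples such as these, fewer cells of a type and less RNA per cell cannot be told apart.

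The pathway was expressed throughout. The 38 genes took 0.199% to 0.201% of counted reads in FMD_LO and 0.194% to 0.206% in CTR_LO, against 0.228% to 0.234% in FMD_HI and 0.191% to 0.201% in CTR_HI. All 3 FMD_HI libraries lay above the other 9 in this share. Per kilobase of the principal transcript, levels averaged over the 4 groups were highest for ACADVL at 106 CPM per kb, HADHA at 87.4, ETFB at 78.0 and HADHB at 77.4, and lowest for PPARA at 1.41 and CPT1C, the brain-type carnitine palmitoyltransferase, at 0.820 CPM per kb.

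**Figure D1:**
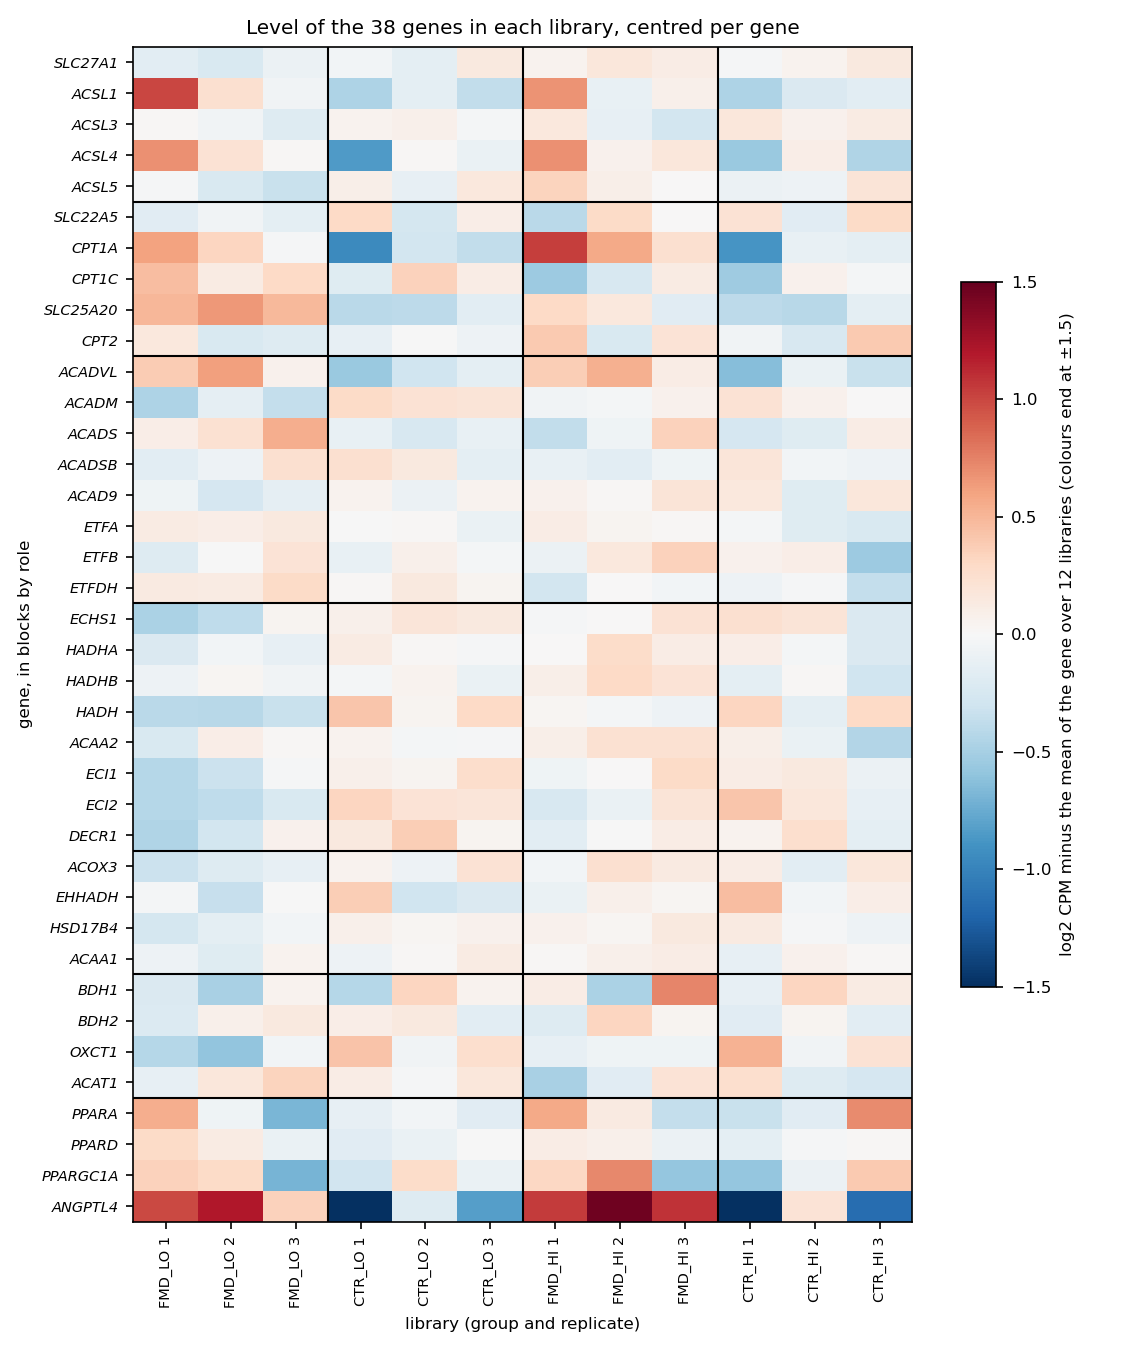
Level of each of the 38 genes (rows, in blocks by role) in each of the 12 libraries (columns, by group), as log2 CPM minus the mean of the gene over the 12 libraries. Colours end at ±1.5, and the only values beyond that are those of ANGPTL4, down to -2.15. ANGPTL4 and ACADVL are red in all 6 FMD libraries, and CPT1A in all of these but FMD_LO replicate 3, which sits at its mean, while HADH and ECI2 are blue in all 3 FMD_LO libraries.

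Between diets in CD24-low cells 6 of the 38 genes were called, 2 higher (SLC25A20 and ACADVL) and 4 lower (ACADM, HADH, ECI2 and OXCT1). That is 15.8% of them, where 16.4% of all genes were called, 12% higher and 4.33% lower. Their log2 fold changes had a median of -0.05, with 15 above 0 and 23 below, and all genes had a median of -0.03. With scaling by RLE in place of TMM, 4 were called higher and 3 lower. DESeq2 called 9, the same 6 and ACSL1, CPT1A and ANGPTL4, all 3 higher, where it called 17.1% of all genes. The libraries of the diets did not overlap for 8 genes that were higher in FMD_LO (ACSL1, ACSL4, CPT1A, SLC25A20, ACADVL, ACADS, ETFA and ANGPTL4), where 19.7% of all genes behaved so. They also did not for 8 that were lower (ACADM, ECHS1, HADHA, HADH, ECI1, ECI2, ACOX3 and HSD17B4), where 17.8% of all genes behaved so. The count called was 3 without FMD_LO replicate 2 or CTR_LO replicate 1, and 11 without FMD_LO replicate 3.

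In CD24-high cells edgeR called none of the 38, as it called 0% of all genes. At an unadjusted p below 0.05 there were 7, where 6.74% of all genes passed, and DESeq2 called 2, CPT1A (adjusted p = 0.0366) and ACADVL (adjusted p = 0.0488), where it called 0.537% of all genes, while limma-voom with correlated numbers called 0. Libraries did not overlap for 6 genes higher in FMD_HI (ACSL1, CPT1A, ACADVL, ETFA, HADHB and ANGPTL4), where 4.48% of all genes behaved so. OXCT1 was the 1 gene whose libraries lay lower in FMD_HI without overlap, where 4.72% of all genes behaved so.

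Averaged over both populations, 9 of the 38 were called, 23.7% of them, where 11.1% of all genes were called, 7.74% higher and 3.32% lower. The 5 higher under FMD were ANGPTL4, CPT1A, ACADVL, ACSL1 and SLC25A20, and the 4 lower were OXCT1, HADH, ECI2 and ACADM. In HI the diets overlapped for SLC25A20, HADH, ECI2 and ACADM, and edgeR called none of the 38 there. The share called averaged therefore does not stand for 9 differences seen in both populations. For 4 genes (ACSL1, CPT1A, ACADVL and ANGPTL4) all 6 FMD libraries lay above all 6 CTR libraries, which held for 0.789% of all genes. No gene of the 38 had all 6 FMD libraries below all 6 CTR libraries, which held for 1.1% of all genes. DESeq2 called 11, these 9 and ACSL4 and ETFA, both higher, where it called 14.7% of all genes. This fit counts the LO and HI libraries of a replicate number as independent, although they deviated together. With a correlation between them in limma-voom 4 were called (CPT1A, ACADVL, ANGPTL4 and SLC25A20), where 4.79% of all genes were, and with 1 mean value per number and diet 2 were called (SLC25A20 and ACADVL), where 3.65% of all genes were. Leaving out 1 library gave 4 (without FMD_LO replicate 1, CTR_LO replicate 3 or FMD_HI replicate 1) or 5 (without CTR_LO replicate 1, FMD_HI replicate 2 or CTR_HI replicate 1) at the low end, and 10 at the high end.

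**Figure D2:**
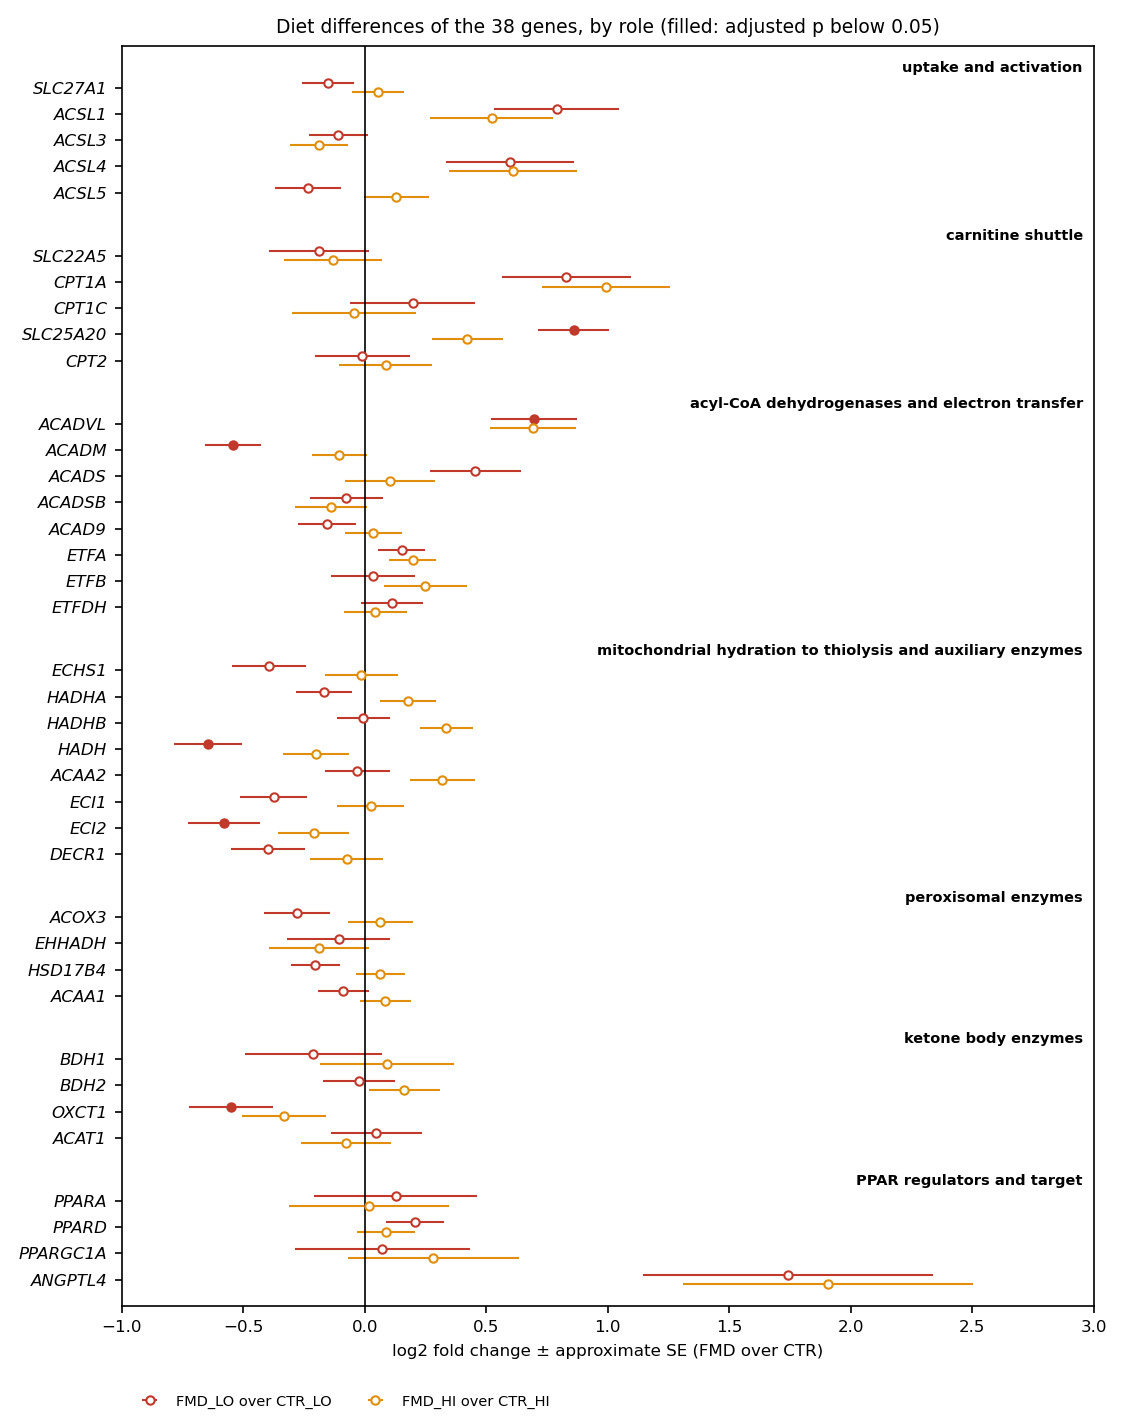
Log2 fold change between diets (x axis, FMD over CTR, with bars of ± 1 approximate SE) of the 38 genes (y axis, by role) in CD24-low (red) and CD24-high cells (orange); filled points have an adjusted p below 0.05. ANGPTL4 lies farthest to the right, at 1.74 in LO and 1.90 in HI, and the 8 further mitochondrial enzymes lie left of 0 in LO, HADHB by only 0.01 (right of 0 with RLE scaling), while 4 of the 8 lie right of 0 in HI.

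Of the genes of uptake and activation, ACSL1 was the 1 called. ACSL1 (chr4:184755595-184826594), a long-chain acyl-CoA synthetase that in liver and muscle channels fatty acids to oxidation, had 28.4, 16.8 and 13.7 CPM in FMD_LO and 10.3, 12.8 and 10.99 in CTR_LO, and 22.6, 13.1 and 14.9 in FMD_HI and 10.3, 12.2 and 12.8 in CTR_HI. Every FMD library was above every CTR library, with replicate 1 far above the rest in both FMD groups. The difference was 0.79 ± 0.26 in LO (adjusted p = 0.0529), 0.52 ± 0.25 in HI (adjusted p = 0.77) and 0.66 ± 0.18 averaged (adjusted p = 0.0353). The averaged call was lost without FMD_LO 1 (0.48, adjusted p = 0.0669), CTR_LO 1 (0.62, 0.0712), CTR_LO 3 (0.65, 0.0682), FMD_HI 1 (0.54, 0.0799) or CTR_HI 1 (0.61, 0.0907), and in both fits that link the populations of a number (adjusted p = 0.0867 with a correlation, 0.156 with means).

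ACSL4, the synthetase that prefers arachidonic acid, was the most abundant of the role, at 22.8 CPM per kb. ACSL4 had 187, 135 and 117 CPM in FMD_LO and 64.6, 117 and 109 in CTR_LO, and 186, 122 and 131 in FMD_HI and 78.9, 124 and 84.8 in CTR_HI. Replicate 1 was the highest library in both FMD groups and the lowest in both CTR groups, and the diets overlapped in HI and parted only narrowly in LO. Its averaged difference was 0.60 ± 0.19 with adjusted p = 0.0576, so that edgeR did not call it. DESeq2 did (adjusted p = 0.0102), as did edgeR without FMD_LO 3 (0.0429), CTR_LO 2 (0.0473) or CTR_HI 2 (0.0285). ACSL3, a synthetase of the endoplasmic reticulum and lipid droplets, had 66.5, 63 and 57.1 CPM in FMD_LO and 68.1, 69.03 and 64.1 in CTR_LO, and 73.3, 60.01 and 54.3 in FMD_HI and 73.8, 68.3 and 71.6 in CTR_HI, with overlapping diets in both populations. SLC27A1, a fatty acid transport protein of the plasma membrane, averaged 29.8 ± 1.49 CPM in FMD_LO and 33.2 ± 3.33 in CTR_LO, and 36.1 ± 1.43 in FMD_HI and 34.8 ± 1.95 in CTR_HI. ACSL5, a synthetase of mitochondria and endoplasmic reticulum, averaged 30.9 ± 3.45 CPM in FMD_LO and 36.3 ± 3.58 in CTR_LO, and 39.1 ± 4.67 in FMD_HI and 35.8 ± 4.04 in CTR_HI. Neither passed the test between diets.

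The carnitine shuttle held the gene with the smallest adjusted p of the 38 in CD24-low cells. SLC25A20 (chr3:48856926-48898882), the carnitine-acylcarnitine translocase that carries acylcarnitines across the inner mitochondrial membrane, had 21.6, 23.8 and 21.3 CPM in FMD_LO and 11.5, 11.6 and 13.6 in CTR_LO, and 18.7, 17.1 and 13.6 in FMD_HI and 11.6, 11.4 and 13.8 in CTR_HI. All 3 FMD_LO libraries were the highest of the 12, and FMD_HI overlapped CTR_HI through its replicate 3. SLC25A20 rose 1.82-fold in LO (0.86 ± 0.15, adjusted p = 0.00133) and by 0.64 ± 0.10 averaged (adjusted p = 0.00204), and in HI it differed by 0.42 ± 0.15 (adjusted p = 0.563). Its call in LO and in the averaged comparison held in 20 of 20 alternatives each.

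CPT1A (chr11:68754620-68844277), the liver-type carnitine palmitoyltransferase whose inhibition by malonyl-CoA sets the rate of fatty acid entry, had 57.2, 47.2 and 37.3 CPM in FMD_LO and 19.4, 31.2 and 29.2 in CTR_LO, and 77.1, 56.1 and 44.5 in FMD_HI and 20.3, 34.8 and 34.1 in CTR_HI. All 6 FMD libraries were above all 6 CTR libraries, with replicate 1 the highest of each FMD group and the lowest of each CTR group. The averaged rise was 0.91 ± 0.19 (adjusted p = 0.00971), or 1.88-fold. Within 1 population it was 0.83 ± 0.26 in LO (adjusted p = 0.0512) and 0.99 ± 0.26 in HI (adjusted p = 0.457), and only DESeq2 called both. With 1 mean value per number the averaged difference was 0.92 and its call was lost (adjusted p = 0.0728).

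CPT2, the partner enzyme on the inner membrane, averaged 10.1 ± 1.53 CPM in FMD_LO and 10.2 ± 0.402 in CTR_LO, and 11.8 ± 2.47 in FMD_HI and 11.1 ± 2.60 in CTR_HI. SLC22A5, the carnitine transporter OCTN2, averaged 6.89 ± 0.312 CPM in FMD_LO and 7.83 ± 1.52 in CTR_LO, and 7.45 ± 1.74 in FMD_HI and 8.16 ± 1.32 in CTR_HI. CPT1C averaged 2.87 ± 0.337 CPM in FMD_LO and 2.51 ± 0.452 in CTR_LO, and 2.04 ± 0.474 in FMD_HI and 2.11 ± 0.447 in CTR_HI. In these 3 genes the diets overlapped in both populations and no adjusted p passed.

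Among the dehydrogenases, the enzymes for very long and for medium chains moved apart. ACADVL (chr17:7217125-7225266), very long-chain acyl-CoA dehydrogenase, which takes the first step on long chains, had 308, 364 and 248 CPM in FMD_LO and 161, 193 and 214 in CTR_LO, and 307, 344 and 257 in FMD_HI and 152, 221 and 188 in CTR_HI. All 6 FMD libraries lay above all 6 CTR libraries, and the differences in the populations were of nearly one size. ACADVL rose 1.62-fold averaged (0.69 ± 0.13, adjusted p = 0.00416) and by 0.70 ± 0.18 in LO (adjusted p = 0.0163), with 0.69 ± 0.18 in HI (adjusted p = 0.431). The averaged call held in 20 of 20 alternatives, and that in LO was lost without FMD_LO 2 (0.55, adjusted p = 0.0877) or CTR_LO 1 (0.58, adjusted p = 0.0717).

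ACADM (chr1:75724709-75763679), medium-chain acyl-CoA dehydrogenase, had 20.7, 26.02 and 22.4 CPM in FMD_LO and 34.8, 33.2 and 32.6 in CTR_LO, and 27.5, 27.98 and 29.8 in FMD_HI and 33.1, 29.8 and 28.7 in CTR_HI. The 3 FMD_LO libraries were the lowest of the 12, and FMD_HI overlapped CTR_HI. ACADM fell by 0.54 ± 0.11 on the log2 scale in LO (adjusted p = 0.00552), a call kept in 20 of 20 alternatives, and the averaged difference was -0.32 ± 0.08 (adjusted p = 0.0222). In HI it was -0.10 ± 0.11 (adjusted p = 0.968). The averaged call was lost without FMD_LO 1 (-0.29, adjusted p = 0.0635), CTR_LO 1 (-0.31, 0.0576), CTR_LO 3 (-0.33, 0.0502), FMD_HI 1 (-0.30, 0.072), FMD_HI 2 (-0.31, 0.0561) or CTR_HI 1 (-0.29, 0.0557), and in both fits that link the populations of a number (adjusted p = 0.0824 with a correlation, 0.137 with means).

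ETFA, the larger subunit of the electron transfer flavoprotein, had 92.3, 91.1 and 94.2 CPM in FMD_LO and 84.5, 86.4 and 79.1 in CTR_LO, and 91.5, 87.5 and 85.8 in FMD_HI and 83.5, 74.99 and 72.6 in CTR_HI. FMD lay above CTR without overlap in both populations, but the differences were small (0.15 in LO and 0.20 in HI) and did not pass in edgeR. Averaged the difference was 0.17 ± 0.07 (adjusted p = 0.116), which of the alternatives only DESeq2 called (adjusted p = 0.0282). ETFB, the other subunit, averaged 70.1 ± 9.84 CPM in FMD_LO and 68.6 ± 4.40 in CTR_LO, and 77.1 ± 11.6 in FMD_HI and 64.9 ± 14.9 in CTR_HI, and ETFDH, which passes the electrons to ubiquinone, averaged 22.3 ± 1.44 CPM in FMD_LO and 20.7 ± 1.02 in CTR_LO, and 18.4 ± 1.89 in FMD_HI and 17.8 ± 2.18 in CTR_HI. Short-chain dehydrogenase ACADS averaged 12.8 ± 2.08 CPM in FMD_LO and 9.30 ± 0.463 in CTR_LO, and 10.4 ± 2.60 in FMD_HI and 9.65 ± 1.30 in CTR_HI. The 3 FMD_LO libraries of ACADS lay above CTR_LO, and its adjusted p in LO was 0.118. ACAD9, a dehydrogenase known also as an assembly factor of complex I, averaged 32.6 ± 2.06 CPM in FMD_LO and 36.3 ± 2.12 in CTR_LO, and 38.6 ± 2.56 in FMD_HI and 37.7 ± 4.97 in CTR_HI. ACADSB, for short branched chains, averaged 12.2 ± 1.85 CPM in FMD_LO and 12.8 ± 1.75 in CTR_LO, and 11.2 ± 0.373 in FMD_HI and 12.3 ± 1.24 in CTR_HI, and neither passed.

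The 8 further mitochondrial enzymes all had a negative difference in CD24-low cells, with a median of -0.38 and 2 called lower, although HADHB sat at 0 (-0.01, and 0.02 with RLE scaling). They were divided in CD24-high cells, with 4 above and 4 below 0 and a median of 0.00. HADH (chr4:107989889-108035171), the 3-hydroxyacyl-CoA dehydrogenase for medium and short chains, had 27.2, 27.1 and 28.5 CPM in FMD_LO and 48.2, 37.1 and 44.2 in CTR_LO, and 36.7, 35.4 and 34.1 in FMD_HI and 45.03, 32.5 and 44.3 in CTR_HI. The 3 FMD_LO libraries were the lowest of the 12 and lay close together, while FMD_HI overlapped CTR_HI through CTR_HI replicate 2. HADH fell by 0.64 ± 0.14 on the log2 scale in LO (adjusted p = 0.00634), kept in 20 of 20 alternatives, and by 0.42 ± 0.10 averaged (adjusted p = 0.0155), with -0.20 ± 0.14 in HI (adjusted p = 0.893). The averaged call was lost in both fits that link the populations (adjusted p = 0.0535 with a correlation, 0.118 with means).

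ECI2 (chr6:4115706-4135575), an enoyl-CoA isomerase that handles unsaturated chains, had 29.6, 30.5 and 34.1 CPM in FMD_LO and 49.8, 46.02 and 45.1 in CTR_LO, and 33.9, 37.2 and 45.6 in FMD_HI and 53.3, 45.03 and 36.7 in CTR_HI. FMD_LO lay below CTR_LO without overlap, and the diets overlapped in HI. ECI2 fell by 0.58 ± 0.15 on the log2 scale in LO (adjusted p = 0.0169) and by 0.40 ± 0.10 averaged (adjusted p = 0.0289). In LO the call was lost without FMD_LO 1 (-0.54, adjusted p = 0.0739), FMD_LO 2 (-0.56, 0.0747) or CTR_LO 1 (-0.54, 0.0636). The averaged call was lost in 8 of the 12 fits without 1 library, those without FMD_LO 1 (adjusted p = 0.0796), FMD_LO 2 (0.081), CTR_LO 1 (0.073), CTR_LO 3 (0.0622), FMD_HI 1 (0.0869), FMD_HI 2 (0.0782), CTR_HI 1 (0.0726) and CTR_HI 2 (0.0514), and also with reads of either strand (0.0534), a correlation (0.0943) or means (0.133).

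HADHA and HADHB, the subunits of the trifunctional protein that carries long chains through the later steps of each cycle, were the most abundant of the role per kilobase. HADHA had 227, 257 and 242 CPM in FMD_LO and 289, 267 and 262 in CTR_LO, and 266, 319 and 285 in FMD_HI and 282, 258 and 228 in CTR_HI. HADHB had 149, 161 and 152 CPM in FMD_LO and 155, 163 and 147 in CTR_LO, and 167, 193 and 182 in FMD_HI and 143, 159 and 128 in CTR_HI. HADHA lay lower in FMD_LO without overlap (-0.17 ± 0.12, adjusted p = 0.343), while HADHB lay higher in FMD_HI without overlap (0.34 ± 0.11, adjusted p = 0.555), and neither was called. ECHS1, the enoyl-CoA hydratase of shorter chains, averaged 71.03 ± 14.1 CPM in FMD_LO and 93.4 ± 3.24 in CTR_LO, and 89.3 ± 8.15 in FMD_HI and 90.2 ± 14.8 in CTR_HI. DECR1, the 2,4-dienoyl-CoA reductase of unsaturated chains, averaged 47.96 ± 9.01 CPM in FMD_LO and 63.3 ± 7.48 in CTR_LO, and 54.8 ± 4.91 in FMD_HI and 57.7 ± 7.88 in CTR_HI. ECI1, the second enoyl-CoA isomerase here, averaged 30.7 ± 4.60 CPM in FMD_LO and 39.9 ± 3.42 in CTR_LO, and 38.7 ± 5.10 in FMD_HI and 38.1 ± 3.39 in CTR_HI. Their adjusted p in LO was 0.094, 0.0914 and 0.0827 in that order, and each was called in LO only without FMD_LO replicate 3 among the alternatives. ACAA2, the thiolase that ends the cycle for shorter chains, averaged 80.8 ± 9.17 CPM in FMD_LO and 82.6 ± 2.40 in CTR_LO, and 93.8 ± 5.34 in FMD_HI and 75.2 ± 13.6 in CTR_HI.

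None of the 4 genes sorted here under peroxisomal enzymes was called between diets. HSD17B4, the bifunctional hydratase and dehydrogenase, had 63.98, 69.7 and 74.7 CPM in FMD_LO and 81.03, 78.7 and 80.4 in CTR_LO, and 80.4, 78.7 and 85.1 in FMD_HI and 84.4, 76.1 and 73.2 in CTR_HI. ACAA1, the peroxisomal thiolase, had 49.97, 46.5 and 54.5 CPM in FMD_LO and 50.1, 53.2 and 57.4 in CTR_LO, and 53.5, 55.8 and 56.8 in FMD_HI and 48.4, 54.99 and 53.4 in CTR_HI. HSD17B4 lay lower in FMD_LO without overlap (-0.20 ± 0.10, adjusted p = 0.187), and the libraries of ACAA1 overlapped. ACOX3, an oxidase known for branched chains, averaged 14.8 ± 1.01 CPM in FMD_LO and 18.01 ± 1.84 in CTR_LO, and 18.6 ± 1.81 in FMD_HI and 17.7 ± 2.05 in CTR_HI. EHHADH, a bifunctional enzyme and a known PPARα target in rodent liver, averaged 5.08 ± 0.627 CPM in FMD_LO and 5.45 ± 1.44 in CTR_LO, and 5.52 ± 0.352 in FMD_HI and 6.29 ± 1.18 in CTR_HI.

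Of the ketone body enzymes, 1 was called. OXCT1 (chr5:41730065-41870425), the mitochondrial transferase that lets a cell burn ketone bodies and that liver lacks, had 41.2, 36.8 and 53.9 CPM in FMD_LO and 74.2, 53.3 and 65.7 in CTR_LO, and 50.98, 52.99 and 52.8 in FMD_HI and 79.4, 53.6 and 64.4 in CTR_HI. In LO the groups overlapped by 1 library on each side, FMD_LO 3 above CTR_LO 2, and in HI all FMD libraries were the lower ones, by a small margin over CTR_HI 2. OXCT1 fell by 0.55 ± 0.17 on the log2 scale in LO (adjusted p = 0.0445) and by 0.44 ± 0.12 averaged (adjusted p = 0.0341). The call in LO held in 8 of 20 alternatives. It was lost without FMD_LO 1 (adjusted p = 0.138), FMD_LO 2 (0.185), CTR_LO 1 (0.152), CTR_LO 3 (0.122), FMD_HI 1 (0.0577), FMD_HI 2 (0.0594), FMD_HI 3 (0.0505) or CTR_HI 3 (0.0539), with RLE scaling (0.0529), reads of either strand (0.0548), thinned reads (0.0579) and a fit of the compared groups alone (0.0595).

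The averaged call of OXCT1 was lost without FMD_LO 1 (adjusted p = 0.0845), FMD_LO 2 (0.0966), CTR_LO 1 (0.0869), CTR_LO 3 (0.0775), FMD_HI 1 (0.0768), FMD_HI 2 (0.0709) or CTR_HI 1 (0.0877), and in both fits that link the populations (0.0927 with a correlation, 0.135 with means).

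BDH2, a cytosolic dehydrogenase, had 45.9, 55.6 and 58.5 CPM in FMD_LO and 56.7, 58.7 and 47.3 in CTR_LO, and 46.4, 66.01 and 54.4 in FMD_HI and 47.03, 54.5 and 47.5 in CTR_HI. BDH1, the mitochondrial dehydrogenase that interconverts the 2 main ketone bodies, averaged 11.3 ± 2.11 CPM in FMD_LO and 13.1 ± 3.32 in CTR_LO, and 14.95 ± 6.20 in FMD_HI and 14.04 ± 2.14 in CTR_HI. ACAT1, the thiolase that joins or splits acetoacetyl-CoA, averaged 25.03 ± 3.96 CPM in FMD_LO and 24.2 ± 1.62 in CTR_LO, and 20.9 ± 4.97 in FMD_HI and 22.1 ± 4.38 in CTR_HI. The diets overlapped in both populations for these genes.

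ANGPTL4 (chr19:8364155-8374370), a secreted inhibitor of lipoprotein lipase and a known PPAR target that hypoxia also raises, had the largest diet difference of the 38. It had 103, 118 and 65.6 CPM in FMD_LO and 11.6, 45.2 and 29.1 in CTR_LO, and 107, 141 and 109 in FMD_HI and 12.7, 59.3 and 23.4 in CTR_HI. All 6 FMD libraries were above all 6 CTR libraries, and in each CTR group replicate 1 was the lowest and replicate 2 the highest. ANGPTL4 rose 3.54-fold averaged (1.82 ± 0.42, adjusted p = 0.0254). The difference was 1.74 ± 0.60 in LO (adjusted p = 0.0783) and 1.90 ± 0.60 in HI (adjusted p = 0.559). The averaged call was lost without FMD_LO 1 (adjusted p = 0.0631), FMD_LO 2 (0.0625), CTR_LO 3 (0.0592), FMD_HI 1 (0.058), FMD_HI 2 (0.0573) or CTR_HI 3 (0.0525), without a count filter (0.0511) and with means per number (0.127), and it was kept with a correlation in limma-voom (2.07 ± 0.42, adjusted p = 0.0246).

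The regulators themselves were not called. PPARD, the receptor PPARδ, had 66.2, 59 and 50.5 CPM in FMD_LO and 48.04, 50.5 and 53.8 in CTR_LO, and 58.6, 57.1 and 50.8 in FMD_HI and 48.7, 53.5 and 54.6 in CTR_HI. PPARA, the receptor PPARα, averaged 13.7 ± 5.72 CPM in FMD_LO and 12.6 ± 0.547 in CTR_LO, and 15.2 ± 4.76 in FMD_HI and 14.98 ± 6.23 in CTR_HI, and PPARGC1A, the coactivator PGC-1α, averaged 11.5 ± 4.04 CPM in FMD_LO and 10.9 ± 2.21 in CTR_LO, and 13.1 ± 5.49 in FMD_HI and 10.8 ± 3.55 in CTR_HI. Per kilobase PPARD was the most abundant of these 3, at 14.4 CPM per kb against 1.41 for PPARA and 1.83 for PPARGC1A, and the diets overlapped for each in both populations.

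**Figure D3:**
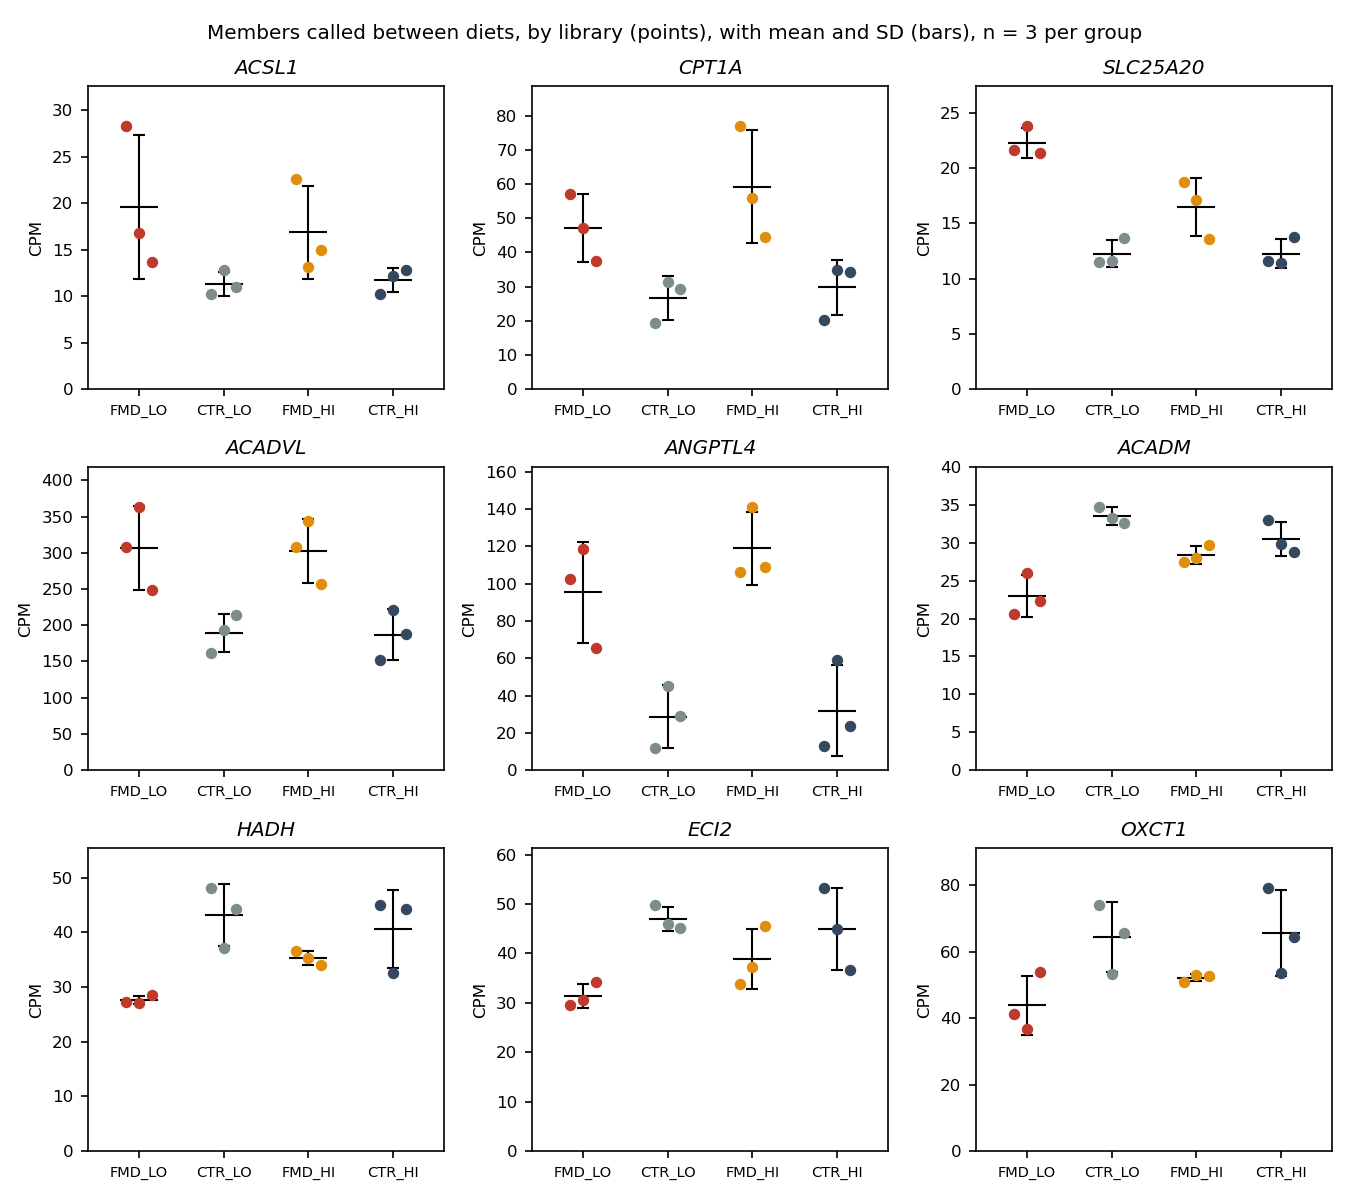
CPM (y axis, from 0) of the 9 genes called between diets in at least 1 comparison, in the 3 libraries of each group (points), with the mean and SD (black bars). The first 5 panels are genes higher under FMD and the last 4 genes lower under FMD, where FMD_LO is the lowest group.

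Between the sorted populations edgeR called none of the 38 under FMD, where 14% of all genes were called. At an unadjusted p below 0.05 there were 11, where 26.2% of all genes passed, and DESeq2 called 1, SLC25A20 (log2 fold change -0.45 HI over LO, adjusted p = 0.0311), where it called 14.2% of all genes. Without 1 library edgeR called SLC25A20 in 2 fits (adjusted p = 0.0425 without FMD_HI 1 and 0.0465 without CTR_HI 3) and ECHS1 in 1 (0.0406 without FMD_LO 3). In FMD libraries the LO and HI samples of each number deviated together (correlations of 0.44, 0.29 and 0.49 across genes). A fit with each such pair as a block was therefore added after seeing the data. With this block edgeR called 13 of the 38, 12 higher in FMD_HI and 1 lower. It called 27.2% of all genes, 10.3% higher and 16.8% lower. The 12 were SLC27A1, ACSL5, CPT1A, ACADM, ECHS1, HADHA, HADHB, HADH, ECI1, ECI2, ACOX3 and HSD17B4, with differences of 0.23 to 0.36 on the log2 scale. HADH was 0.36 ± 0.09 higher in FMD_HI (adjusted p = 0.00977) while SLC25A20 was lower by 0.45 ± 0.11 (-0.45, adjusted p = 0.0107). CPT1A was 0.31 ± 0.08 higher with the block (adjusted p = 0.0163), the 1 alternative of 21 that called it. Without FMD_HI replicate 1 its unblocked difference was 0.08 (adjusted p = 0.902). In limma-voom with a correlation, also added after seeing the data, 11 were called, 10 of them higher in FMD_HI, where 25.3% of all genes were called.

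Without the block, libraries of 9 genes were higher in FMD_HI than in FMD_LO without overlap, where 13.1% of all genes behaved so, and 2 were lower, where 18.3% did. The 8 further mitochondrial enzymes all lay on the higher side in FMD_HI (median 0.28, range 0.19 to 0.36), and the 4 peroxisomal enzymes likewise (median 0.18), where the median of all genes was 0.06. HADHA, for one, had 266, 319 and 285 CPM in FMD_HI against 227, 257 and 242 CPM in FMD_LO. Of the line's markers 3 of 4 were also on the higher side in FMD_HI, with a median of 0.42, and KRT18 was called (0.44 ± 0.12, adjusted p = 0.0213). The sums of the myeloid, muscle, fibroblast, endothelial and adipocyte lists given above were higher in FMD_LO than in FMD_HI. The part of either in these differences was not tested.

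Under the control diet the populations were close. None of the 38 was called by edgeR, DESeq2, limma-voom or the block within diet, where edgeR called 0% of all genes, and none had an unadjusted p below 0.05, where 0.589% of all genes did. The median difference was -0.02, with a range of -0.24 to 0.25 and a median standard error of 0.15. ETFDH was the 1 gene without overlap, with 18.7, 19.5 and 15.4 CPM in CTR_HI and 19.9, 21.8 and 20.3 CPM in CTR_LO, and 1.96% of all genes were lower without overlap.

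The diet difference in LO minus that in HI was tested directly. EdgeR called none of the 38, where 4.13% of all genes were called, and 3 had an unadjusted p below 0.05 (ACADM, HADH and HADHB), where 15.2% of all genes did. DESeq2 also called 0. In the 8 further mitochondrial enzymes this difference was negative in each, between -0.44 and -0.32 with a median of -0.36, where the median of all genes was -0.04 and that of the line's 4 markers was -0.39. Both fits that link same-numbered libraries of a diet were added after seeing the data. With these libraries as blocks, HADH was called (-0.45 ± 0.12, adjusted p = 0.0327), where 11% of all genes were. With a correlation ACADM (-0.45 ± 0.12, adjusted p = 0.0269) and HADH (-0.45 ± 0.14, adjusted p = 0.0474) were called, where 12.2% of all genes were. For ANGPTL4, CPT1A and ACADVL the interaction was -0.16 ± 0.82, -0.16 ± 0.37 and 0.00 ± 0.25 in that order, and none passed.

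**Figure D4:**
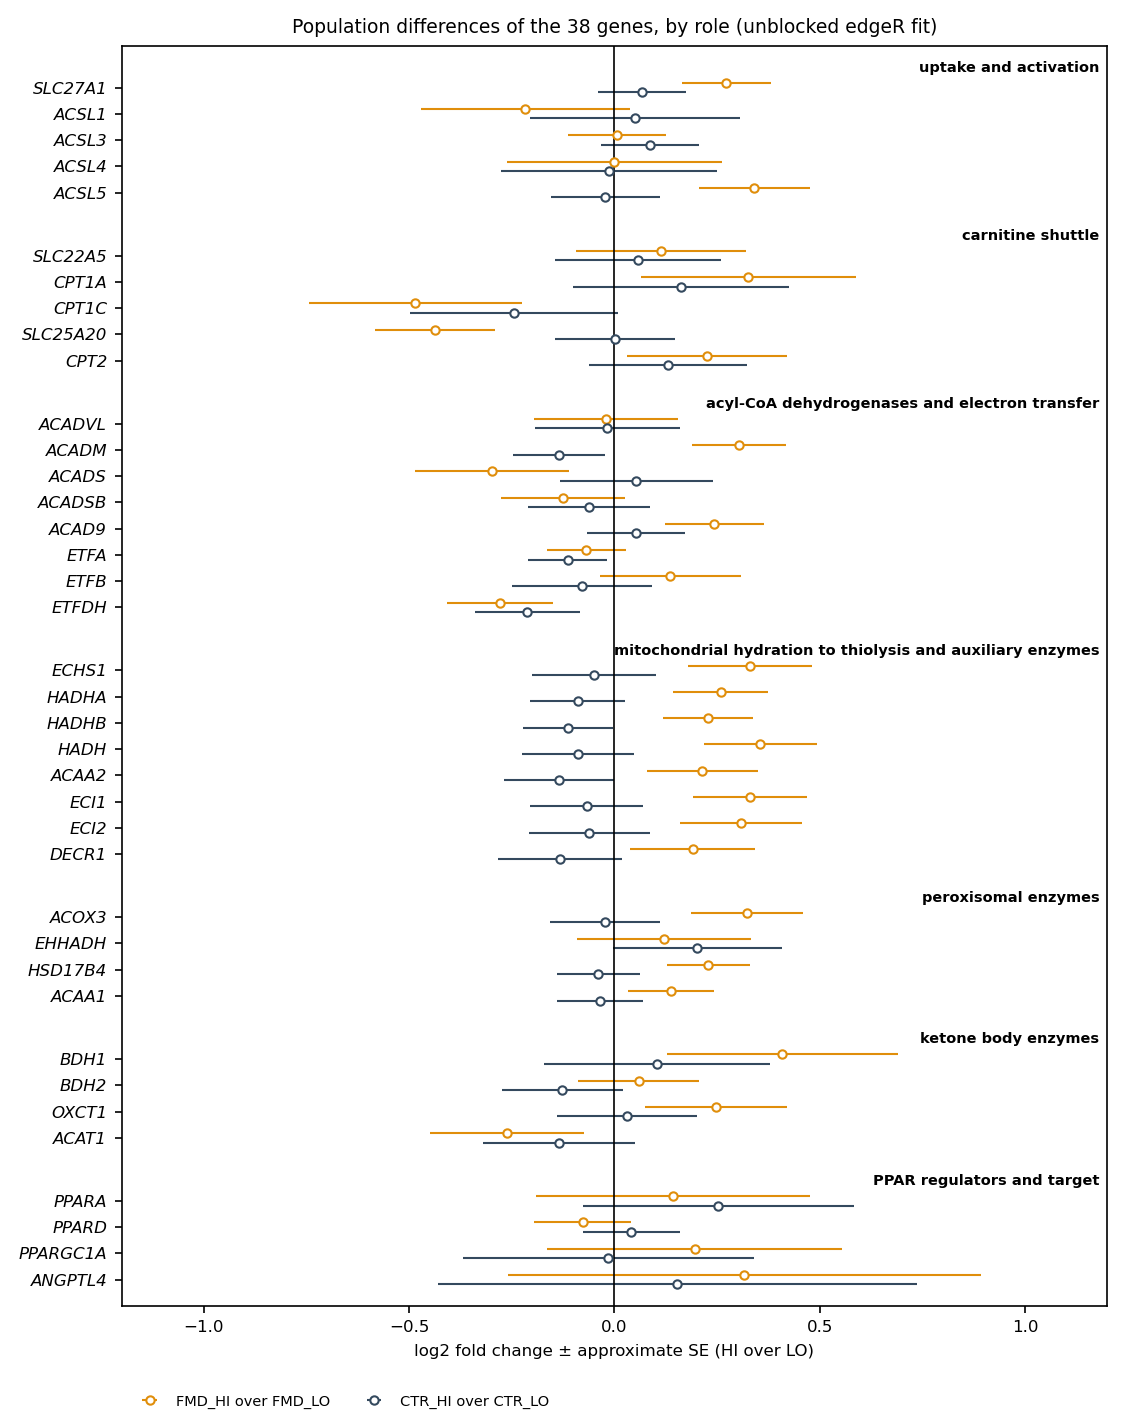
Log2 fold change between populations (x axis, CD24-high over CD24-low, with bars of ± 1 approximate SE) of the 38 genes (y axis, by role) under FMD (orange) and under the control diet (dark blue), from the fit without a replicate block, in which no gene of the 38 was called. The 8 further mitochondrial enzymes lie right of 0 under FMD, at 0.19 to 0.36, and left of 0 under the control diet.

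Genes of the same pathway outside the 38 were taken as a list of 46, of which 42 were tested. In CD24-low cells 8 were called higher and 2 lower, 23.8% where 16.4% of all genes were. None was called in HI, where 7 passed an unadjusted p of 0.05 and DESeq2 called SLC27A2 alone. Averaged over populations 6 were higher and 1 lower, 16.7% where 11.1% of all genes were called. The 6 included PLIN2, UCP2, SLC27A4 and ACADL, which were highest in FMD_LO, so this share does not stand for a difference seen in both populations. The averaged call held in 20 of 20 alternatives for PLIN2 and UCP2, 19 for SLC27A4, 15 for ESRRA and 11 for ACADL. PLIN2, the coat protein of lipid droplets, had 87.8, 102 and 59.6 CPM in FMD_LO and 0.456, 2.18 and 0.386 in CTR_LO, and 1.51, 0.720 and 1.69 in FMD_HI and 0.238, 0.896 and 0.258 in CTR_HI. UCP2, a mitochondrial carrier also abundant in macrophages, had 75.8, 56.4 and 98.9 CPM in FMD_LO and 2.22, 3.73 and 4.75 in CTR_LO, and 5.76, 5.43 and 20.1 in FMD_HI and 4.67, 3.96 and 3.35 in CTR_HI. Both stood far above every other group in FMD_LO, with 6.44 ± 0.64 (adjusted p = 0.000104) and 4.45 ± 0.54 (adjusted p = 0.000336) in LO.

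PDK4, the kinase that turns glucose oxidation down in fasting, had 9.79, 12.8 and 5.91 CPM in FMD_LO and 1.49, 3.80 and 1.22 in CTR_LO, and 4.72, 6.21 and 2.63 in FMD_HI and 0.982, 2.03 and 1.95 in CTR_HI. FMD lay above CTR without overlap in both populations, by 2.15 ± 0.47 in LO (adjusted p = 0.00903) and 1.45 ± 0.48 in HI (adjusted p = 0.558), and PDK4 rose by 1.80 ± 0.34 averaged (adjusted p = 0.00658), a call kept in 20 of 20 alternatives.

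SLC27A4, a fatty acid transport protein, had 52.4, 52.8 and 54.4 CPM in FMD_LO and 23.4, 18.9 and 24.7 in CTR_LO, and 20.1, 16.6 and 24.3 in FMD_HI and 26, 18.7 and 23.8 in CTR_HI, so that FMD_LO alone stood out, at 2.38-fold of CTR_LO (1.25 ± 0.16, adjusted p = 0.000182). ACADL, the long-chain dehydrogenase, had 2.73, 2.59 and 3.85 CPM in FMD_LO and 0.0414, 0.504 and 0 in CTR_LO, and 0.0945, 0.150 and 0.156 in FMD_HI and 0.0595, 0.172 and 0.114 in CTR_HI, with FMD_LO again above all other groups (4.18 ± 0.77 in LO, adjusted p = 0.00234). The other genes called higher in LO were ABCD2, a peroxisomal transporter (2.998), UCP3 (1.07) and ESRRA, a nuclear receptor that works with PGC-1α (0.51). The call of ABCD2 held in 20 of 20 alternatives, that of ESRRA in 18 (adjusted p up to 0.0655, without CTR_LO 1) and that of UCP3 in 9 (up to 0.141, without CTR_LO 3). The 2 called lower were CROT, the peroxisomal carnitine octanoyltransferase (-0.58), and ACAT2, a cytosolic thiolase of sterol synthesis (-0.80). CROT was called in 15 of 20 alternatives (adjusted p up to 0.115, without CTR_LO 1) and ACAT2 in 8 (up to 0.187, without FMD_LO 1). Between populations under FMD 5 of the 42 were called, 11.9% where 14% of all genes were, and all 5 were lower in FMD_HI, as were 1879 of the 2163 genes called. They were SLC27A4 (-1.39), PLIN2 (-5.98), ABCD2 (-3.73), ACADL (-4.47) and UCP2 (-2.88). The higher myeloid and muscle marker sums of FMD_LO stand beside these genes, and their part in them was not tested.

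**Figure D5:**
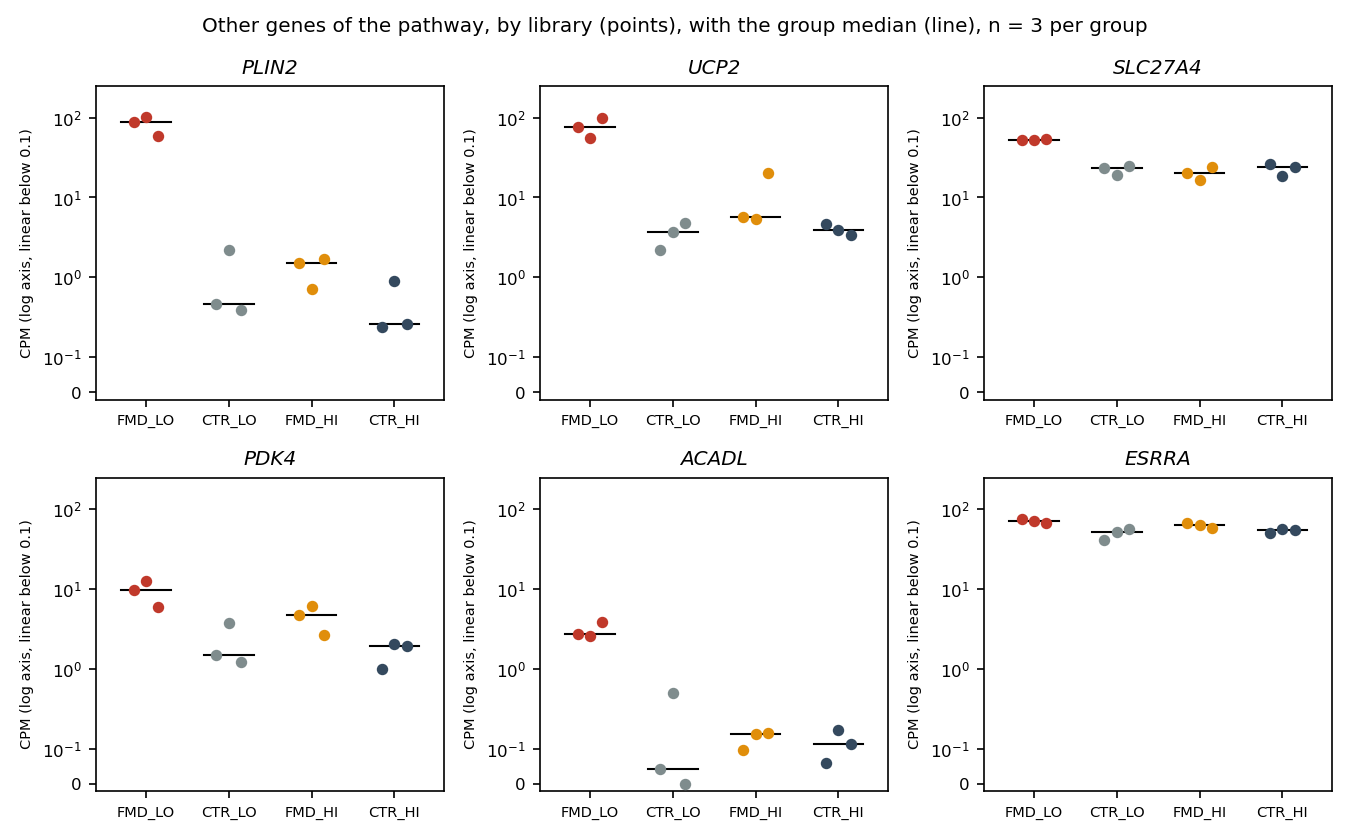
CPM (y axis, logarithmic and linear below 0.1) of 6 pathway genes outside the 38, in the 3 libraries of each group (points), with the group median (line). PLIN2, UCP2, SLC27A4 and ACADL are highest in FMD_LO, at up to 102 CPM for PLIN2, and PDK4 is higher under FMD in both populations.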

How the data were processed

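RNA was measured in 12 sorted libraries made with a stranded mRNA kit, per the labels' protocols. The deposited files hold counts per gene, made by the authors with STAR against hg38, per the submitters' processing notes. The version of STAR and any removal of mouse reads are not given in the sources used here. Column 4, the reverse-strand counts that fit the kit, was used as deposited.

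Genes passing filterByExpr by group (15461, with 11014 under the filter) were scaled by TMM and tested with edgeR 4.0.16's quasi-likelihood test (robust, R 4.3.3) in 1 fit of 4 groups of 3, with 8 residual degrees of freedom, and p-values were adjusted by Benjamini-Hochberg over all genes. The fit was first tested on simulated data with genes changed in FMD_LO. In LO it called 51 of 99 genes with a log2 change of 1 and 88 of 99 with a change of 2. It also called 6 unchanged genes, and smaller changes were not simulated. Standard errors were taken as the log2 fold change over the square root of F and are approximate. DESeq2 1.42.0 and limma 3.58.1 were alternatives, with other scalings, filters, thinned reads, a replicate block and each library left out.

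Same-numbered LO and HI libraries deviated together under FMD (r = 0.44, 0.29 and 0.49) and less evenly under CTR (0.44, 0.52 and 0.04), while numbers did not pair the diets (-0.22 to 0.08). Where each number of a diet was treated as a block or as correlated (consensus correlation 0.47), that alternative was chosen after seeing the data. Genes named with the values of every library are those called in any comparison and the 1 or 2 with the highest CPM of each role. Among other pathway genes those with the smallest p between diets, or called more than once, are named. A gene of the wider pathway list is not reported here. Members and lists were chosen with earlier results of these data known. Gene coordinates and upstream sequence are RefSeq GRCh38.p14.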

Additional observations from a re-analysis of the deposited data

Results flagged for a closer look

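The unblocked edgeR test of the difference between the diet effects in both populations called no gene of the 38, but it called 4 of the 42 tested pathway genes outside them (9.52%), where 4.13% of all genes were called. Each had a higher diet difference in CD24-low than in CD24-high cells, as had 630 of the 638 genes called. PLIN2 differed by 4.90 on the log2 scale (adjusted p = 0.0253), called in 12 of 20 alternatives, with an adjusted p of 0.141 without CTR_HI replicate 2. SLC27A4 differed by 1.42 (adjusted p = 0.00384) and ABCD2 by 4.34 (adjusted p = 0.0059), each called in 20 of 20. UCP2 differed by 3.05 (adjusted p = 0.037), called in 8 of 20, with an adjusted p of 0.118 without a count filter. Myeloid markers also differed more between diets in LO, with 4 of 10 called in this test, and their part in these genes was not tested.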

How the results depend on the processing

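Direction and calls were followed over the alternatives only for genes of the 38 in a comparison where at least 1 setting called them. Of these 813 values, 686 kept their direction and side of the threshold, 64 crossed to called and 63 lost the call, and none changed direction. Outside them some differences near 0 did change direction, such as HADHB in CD24-low cells (-0.01, and 0.02 with RLE scaling). In CD24-high cells DESeq2 called 2 genes between diets against 0 by edgeR. For the averaged diet comparison limma-voom with same-numbered libraries correlated called 4 and means per number 2, against 9. Between populations under FMD DESeq2 called 1, reads thinned to 17736610 gave 1, the replicate block within diet gave 13 and limma-voom 11, against 0. The interaction gave 1 with the replicate block within diet and 2 with limma-voom, against 0. The planned replicate block over all 4 groups gave 7 in CD24-low cells and 9 averaged, and 0 in each other comparison. Leaving out 1 library gave 3 to 11 genes in CD24-low cells, 0 to 0 in CD24-high cells, 4 to 10 averaged, 0 to 1 between populations under FMD (1 without FMD_LO replicate 3, FMD_HI replicate 1 or CTR_HI replicate 3), and 0 to 0 both under the control diet and for the interaction. The cause of these moves was not tested. FMD_LO libraries are the shallowest, and thinning all to their depth gave 6 calls in CD24-low cells, 3 higher and 3 lower.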
